A study of Mus musculus with 3 samples.

Results

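The proteasome genes of mouse bone marrow-derived dendritic cells were examined after treatment with rATB, the recombinant B chain of articulatin, a mistletoe lectin. Members were taken by a rule on names: every gene whose symbol starts with Psma, Psmb, Psmc, Psmd, Psme, Psmf or Psmg followed by a digit, leaving out symbols with "-ps". This gave 49 of the 34590 gene symbols in the deposited table, held in 51 of its 37991 rows. Within them, Psmb8, Psmb9, Psmb10, Psme1 and Psme2 are the 5 immunoproteasome genes, and they were set against the other 44.

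The proteasome is the barrel-shaped protease that degrades ubiquitin-tagged proteins into peptides. Its core is built of stacked rings of alpha subunits, which gate the entrance, and beta subunits, some of which carry the active sites. A regulatory cap with ATPase and non-ATPase subunits recognises, unfolds and threads the substrate, and assembly chaperones help to build core and cap. Interferon induces alternative catalytic subunits, which replace their constitutive counterparts in new particles and form the immunoproteasome, and also the subunits Psme1 and Psme2 of an alternative activator ring. Immunoproteasomes favour peptides that fit major histocompatibility complex class I molecules, and dendritic cells are known to carry them even without stimulation.

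The study compared 3 groups of primary dendritic cells grown from mouse marrow with granulocyte-macrophage colony-stimulating factor, a cytokine that drives myeloid differentiation. The non-adherent cells of day 6 were cultured for 48 h with rATB at 800 ng/ml, with buffer, or without addition, the last called control. Each group was 1 library, so differences have no replicate check, and p-values are not given because the treatment could not be tested. Strain, genotype, age, sex and number of the mice, and whether marrow was pooled, go unstated in the labels.

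The deposited log2 values were turned into reads, which totalled 15203139 in the rATB library, 16105080 in the buffer library and 17776492 in the control. Levels are given in units, the reads with the deposited scaling kept per 1000000 reads of the control, so that 1 unit stood for 15.7 to 17.8 reads. A gene entered the comparisons where its levels averaged 1 unit or more, which 12559 genes did. Every ratio below has an exact conditional 95% interval from the reads, which covers counting error only and not the difference between cultures. Itgax, Cd74 and the other 6 listed dendritic cell markers were all above the filter. All 8 listed macrophage markers were above it too, as were S100a8, S100a9 and Ngp of 8 neutrophil markers and Cd8a and Lat of 6 T cell markers. Cd3e and Cd3g of T cells and Ms4a1 and Pax5 of B cells were listed at 0 in every library.

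Of the 49 proteasome genes, 46 were past the filter, 4 of them immunoproteasome genes. The exceptions were Psmb9, Psmb11 and Psma8. Psmb11, the catalytic subunit of thymic epithelium, was listed at 0 in every library. Psma8, the alpha subunit of testis, stood at 0.826, 1.11 and 0.788 units in the rATB, buffer and control libraries. Psmb9 has 2 rows in the table, and both were listed at 0 in every library. Among symbols with several rows, 134 of 349 (38.4%) were likewise listed at 0 throughout. Of all rows, 53.1% to 54.0% were listed at 0 in a single library. That share counts rows per library and not symbols over all libraries, so it does not show whether 38.4% is high or low. Whether repeated rows lost reads in counting was not tested, and no level of Psmb9 is given. One gene taken in by its name, Psmc3ip, encodes a meiotic recombination factor and no subunit. It stood at 1.14, 1.11 and 1.41 units in the rATB, buffer and control libraries, near the filter.

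The proteasome genes differed little between the libraries. On the log2(value + 1) scale, used for all differences and fold counts, rATB minus buffer ran from −0.22 in Psmg1 to 0.27 in Psmb3. At least 1.2-fold higher in the rATB library than with buffer was 1 of 46 genes, Psmb3, against 13.4% of all genes past the filter. None of the 46 was 1.2-fold lower, against 15.0% of all genes. Against control, 1 of 46 was 1.2-fold higher, the assembly chaperone gene Psmg2, beside 11.4% of all genes, and 0 were lower, beside 18.3%. Those shares hold for the deposited scaling. Under each of the 3 other scalings Psmb8 joined Psmg2. No member differed 2-fold from buffer in either direction, a size that 0.900% of all genes reached upward and 0.669% downward. Against control the 2-fold counts were also 0, beside 0.948% of all genes higher and 0.884% lower.

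Differences beyond counting error were found in a minority of members. The interval of the rATB over buffer ratio lay above 1 in 6 of the 46 genes (all genes 19.6%) and below 1 in 2 (all genes 20%). Over control it lay above 1 in 7 (all genes 14.5%) and below 1 in 1 (all genes 27.3%). Above both other libraries by this measure were Psmb8, Psmb1, Psmb7, Psmd4 and Psmf1, 5 of 46 beside 11.4% of all genes. Below both was Psma4, 1 of 46 beside 15.4% of all genes. Each share is near or under that of all genes, so the counts set the members apart upward in neither comparison. Simply highest with rATB were 13 members (all genes 33.2%) and simply lowest were 18 (all genes 44.1%). That split followed the scaling: it was 13 and 15 with scaling by total reads, 16 and 11 with trimmed-mean factors (TMM), and 18 and 8 with median-of-ratios factors.

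**Figure D1:**
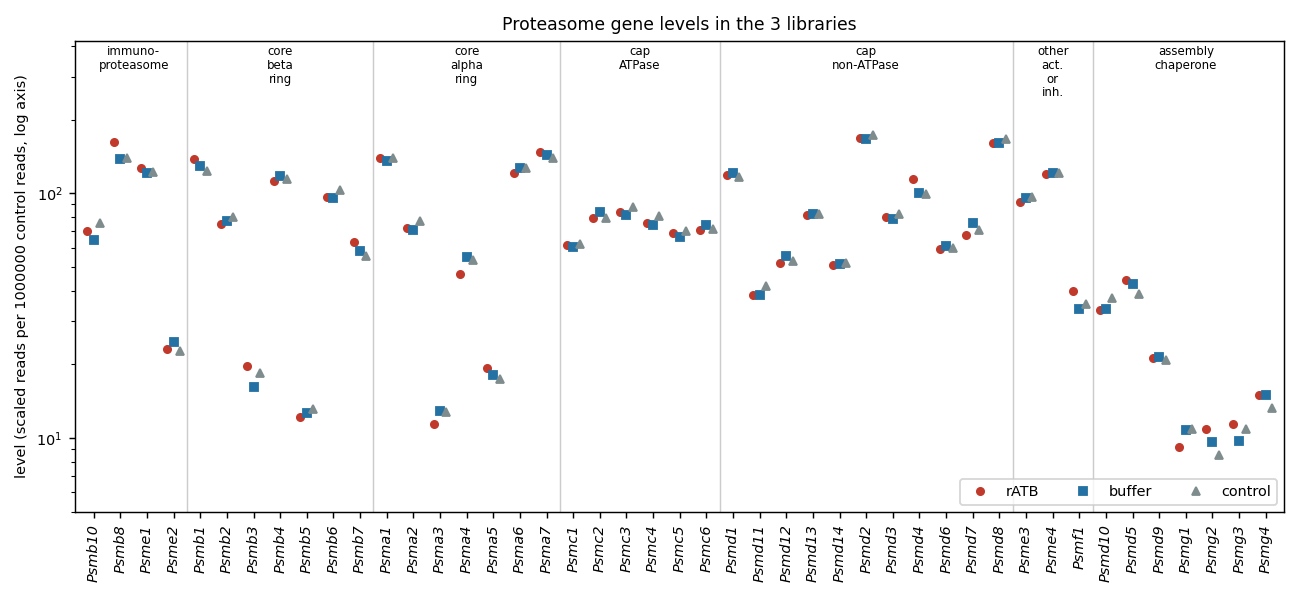
Level of 45 proteasome genes past the filter (Psmc3ip left out) in scaled reads per 1000000 control reads on a log axis, for the rATB library (circles), the buffer library (squares) and the control (triangles), grouped by role. The 3 symbols of a gene lie close together, with Psmb8 visibly higher with rATB at 162 units and Psma4 visibly lower at 46.9.

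Among the immunoproteasome genes, Psmb8 stood out. Psmb8 (ENSMUSG00000024338) encodes the inducible chymotrypsin-like subunit LMP7, lies in the class II region of the histocompatibility complex on chromosome 17, and takes the place of Psmb5. It had 162 units in the rATB library, 138 in the buffer library and 139 in the control, from 2550, 2351 and 2466 reads. The rATB library was the highest and the other two were nearly level. The ratio was 1.18 (95% interval 1.11 to 1.25) over buffer and 1.17 (95% interval 1.10 to 1.24) over control, while buffer over control was 0.992 (0.937 to 1.05). Both rATB intervals stayed above 1 under each of the 3 other scalings. On the log2(value + 1) scale the differences were 0.23 and 0.22, just short of 1.2-fold. Under each of the 3 other scalings the difference from control passed 1.2-fold, at 0.27, 0.27 and 0.28, and the difference from buffer, 0.20, 0.23 and 0.24, did not.

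Psmb10 (ENSMUSG00000031897, chromosome 8) encodes MECL-1, the inducible trypsin-like subunit that takes the place of Psmb7. It did not go the way of Psmb8, with 70.2 units in the rATB library, 64.6 in the buffer library and 75.3 in the control. Here the control was the highest and the buffer library the lowest. The ratio was 1.09 over buffer (0.999 to 1.18) and 0.932 over control (0.860 to 1.01). With median-of-ratios factors the interval over buffer lay just above 1. Buffer over control was 0.857 (0.791 to 0.929), and Psmb10 was one of 5 members (all genes 21.9%) whose interval lay below 1 in that comparison. The other 4 were Psma2, Psmb6, Psmc3 and Psmc4, and no member lay above 1 (all genes 5.61%). None of the 46 members was 1.2-fold higher or lower in buffer than in control, beside 5.03% and 8.68% of all genes, and none was 2-fold higher or lower, beside 0.00% and 0.0557%.

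Relative to Psmb10, Psmb8 was 1.08 (0.978 to 1.2) times as high with rATB as with buffer, and 1.25 (1.14 to 1.38) times as high as in the control. The same ratio for buffer over control was 1.16 (1.05 to 1.28), so part of the distance from the control was present without rATB. Such ratios of ratios do not depend on the scaling of the libraries.

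Psme1 (ENSMUSG00000022216) and Psme2 (ENSMUSG00000079197) encode the alpha and beta subunits of the PA28 activator, a ring that docks on the core and opens its gate without ATP. Both genes lie on chromosome 14. Psme1 had 127 units in the rATB library, 121 in the buffer library and 122 in the control. It was slightly higher with rATB than in the other two libraries, with a ratio of 1.05 over buffer (0.984 to 1.11) and 1.04 over control (0.979 to 1.11). Both intervals include 1. Over control, the interval lay above 1 under all 3 other scalings, at a ratio of 1.08 in each. Psme2 had 23.1 units in the rATB library, 24.6 in the buffer library and 22.7 in the control, with the buffer library highest. Its ratio was 0.941 over buffer (0.815 to 1.09) and 1.02 over control (0.881 to 1.18).

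Reads of Psme2 could not be assigned to it with certainty. A near-identical copy of it on chromosome 11, listed as Psme2b-ps and left out by the name rule, had 136 units in the rATB library, 131 in the buffer library and 138 in the control. Per kilobase of exon that was 162, 156 and 165 units in the rATB, buffer and control libraries, against 13.1, 13.9 and 12.9 for Psme2. The coding sequences of both, 720 bases each in GENCODE M21, differed at 5 bases with 0 gaps, an identity of 99.3%. A stretch of 60 coding bases that holds 3 of the differences, positions 484 to 543 counted from 1 at the first base of the start codon, is printed 5′ to 3′ with the differing bases in capitals.
Psme2: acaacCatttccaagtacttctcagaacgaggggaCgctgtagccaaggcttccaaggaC
Psme2b: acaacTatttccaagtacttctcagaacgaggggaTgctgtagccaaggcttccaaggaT
Within this stretch, reads of the 2 genes can be told apart at the capitals alone. Summed over both, the level was 159 units in the rATB library, 155 in the buffer library and 161 in the control. The summed ratio was 1.02 (0.966 to 1.08) over buffer and 0.986 (0.934 to 1.04) over control, so the sum did not differ beyond counting error.

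Taken over the 4 measured immunoproteasome genes, the median difference on the log2(value + 1) scale was 0.09 against buffer and 0.04 against control for the rATB library, and −0.01 for buffer against control. With scaling by total reads, TMM and median-of-ratios factors the median against control was 0.089, 0.086 and 0.096. Over the 42 other members the medians were 0.00, −0.02 and −0.01 for the same differences. Over all genes they were −0.00, −0.06 and −0.05. The summed immunoproteasome level was 382 units in the rATB library, 348 in the buffer library and 359 in the control. The ratio of the sums was 1.10 (1.06 to 1.14) over buffer and 1.07 (1.03 to 1.10) over control, and Psmb8 supplied most of that excess. The summed level of the 42 others was 2904 units in the rATB library, 2894 in the buffer library and 2918 in the control, with ratios of 1.00 (0.991 to 1.02) and 0.995 (0.983 to 1.01). In bulk RNA, fewer cells of one type and less RNA per cell cannot be told apart.

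The promoters of these genes are shown because interferon acts on this group through known DNA elements. Each window runs from 250 bases before to 50 after the RefSeq start of the gene in build GRCm38.p6 and is printed 5′ to 3′ on the strand of the gene, with searched motifs in capitals. The motifs, searched on both strands, were the interferon-stimulated response element core (runs of GAAA on either side of 2 bases of any kind), the gamma-activated sequence TTCNNNGAA, the antioxidant element TGACNNNGC bound by Nrf2 with small Maf proteins, and CCAAT. Psmb8 lies on the plus strand at chr17:34197945-34198244, Psmb10 on the minus strand at chr8:105938343-105938642, Psme1 on the plus strand at chr14:55578244-55578543, and Psmb5, the constitutive counterpart of Psmb8, on the minus strand at chr14:54617946-54618245.
Psmb8: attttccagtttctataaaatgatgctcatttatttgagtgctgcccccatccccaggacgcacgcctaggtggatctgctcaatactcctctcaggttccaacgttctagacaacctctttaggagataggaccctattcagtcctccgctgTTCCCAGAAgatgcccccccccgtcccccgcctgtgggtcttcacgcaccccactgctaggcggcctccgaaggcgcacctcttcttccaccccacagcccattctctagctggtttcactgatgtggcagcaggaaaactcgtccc
Psmb10: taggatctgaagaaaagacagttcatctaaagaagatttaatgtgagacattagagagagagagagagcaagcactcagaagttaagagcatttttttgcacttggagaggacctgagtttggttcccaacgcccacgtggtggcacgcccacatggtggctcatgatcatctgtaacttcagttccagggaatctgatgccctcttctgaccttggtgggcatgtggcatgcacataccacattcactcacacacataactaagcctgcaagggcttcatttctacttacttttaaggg
Psme1: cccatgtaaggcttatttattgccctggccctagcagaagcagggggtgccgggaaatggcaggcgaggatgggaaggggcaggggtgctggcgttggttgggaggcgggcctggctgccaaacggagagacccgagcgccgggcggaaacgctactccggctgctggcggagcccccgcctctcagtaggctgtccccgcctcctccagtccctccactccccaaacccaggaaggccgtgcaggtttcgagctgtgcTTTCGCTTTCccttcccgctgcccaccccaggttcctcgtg
Psmb5: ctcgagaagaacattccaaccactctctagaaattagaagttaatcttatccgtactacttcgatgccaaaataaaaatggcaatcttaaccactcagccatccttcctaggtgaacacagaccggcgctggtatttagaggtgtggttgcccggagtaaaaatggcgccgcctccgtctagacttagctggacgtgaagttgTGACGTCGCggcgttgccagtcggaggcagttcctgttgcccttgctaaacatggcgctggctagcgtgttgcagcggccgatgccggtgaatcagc
The capitals mark a TTCNNNGAA match in Psmb8 that begins 97 bases before the start, a match to the response element core on the opposite strand in Psme1 that begins at base 10 counted from the start, and a TGACNNNGC match in Psmb5 that begins 47 bases before the start. The Psmb10 window holds none of the letters searched.

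Windows were found for 41 of the 49 members, 44 windows in all, and set beside all 32851 windows of the table. The response element core was in 5 of the 44 (11.4%; Psmb3, Psmd4, Psmd9, Psme1 and Psmg4) and in 3.44% of all windows. TTCNNNGAA was in 3 of the 44 (6.82%; Psmb8, Psmd2 and Psmg1) and in 8.30% of all. TGACNNNGC was in 6 of the 44 (13.6%; Psmb5, Psmb6, Psmc6, Psmd12, Psmd9 and Psme4), in 0 of the 6 immunoproteasome windows, and in 12.4% of all. CCAAT was in 15 of the 44 (34.1%) and in 37.4% of all. The response element core, TTCNNNGAA and CCAAT were each in 1 of the 6 immunoproteasome windows. With 6 windows, counts of 0 and 1 do not set these genes apart from the shares of all windows. Of the 3 genes with TTCNNNGAA, Psmb8 was higher than in both other libraries beyond counting error, and Psmd2 and Psmg1 were within counting error of them. Of the 5 genes with the response element core, Psmd4 was higher than in both. Psmb3 was higher than buffer alone, and Psmd9, Psme1 and Psmg4 were within counting error. The 6 genes with TGACNNNGC were all within counting error. A link between motif and level was not tested. A match is a string of letters and does not show that a factor binds there.

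The exchange of constitutive for inducible catalytic subunits was read from the transcript pairs. Psmb5 (ENSMUSG00000022193), the constitutive chymotrypsin-like subunit, had 12.1 units in the rATB library, 12.6 in the buffer library and 13.2 in the control, with a ratio of 0.960 over buffer (0.786 to 1.17) and 0.922 over control (0.758 to 1.12). Psmb8 made up 93.0% (92.0 to 94%) of the reads of the pair in the rATB library, 91.6% (90.4 to 92.6%) in the buffer library and 91.3% (90.2 to 92.4%) in the control. The rATB share was the highest and its interval overlapped both others. Read shares depend on transcript length, so only their differences between libraries are compared. The Psmb8 to Psmb5 ratio was 1.23 (0.997 to 1.51) times that of buffer and 1.27 (1.03 to 1.55) times that of control. Of the 31-base words in Psmb5 transcripts, 71.7% also occur in another gene, so reads of Psmb5 cannot always be told apart from those of copies.

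Psmb7 (ENSMUSG00000026750), the constitutive trypsin-like subunit, had 63.5 units in the rATB library, 58.1 in the buffer library and 55.6 in the control, with a ratio of 1.09 over buffer (1.00 to 1.19) and 1.14 over control (1.04 to 1.25). The interval over buffer reached below 1 with scaling by total reads and with TMM factors. Of its 31-base words, 31% are shared with the overlapping gene Nek6. Nek6 had 2982, 2775 and 2888 reads in the rATB, buffer and control libraries, or 190, 162 and 162 units. It was also highest with rATB, and the part of Nek6 reads in the values of Psmb7 was not tested. Psmb10 made up 52.5% (50.4 to 54.7%) of the reads of Psmb10 plus Psmb7 in the rATB library, 52.6% (50.5 to 54.8%) in the buffer library and 57.5% (55.5 to 59.5%) in the control. The rATB and buffer shares overlap almost entirely, and both lie below that of the control. Accordingly the Psmb10 to Psmb7 ratio was 0.995 (0.880 to 1.13) times that of buffer but 0.817 (0.724 to 0.922) times that of control, and buffer over control was 0.821 (0.728 to 0.927). Relative to its counterpart, Psmb8 was thus higher with rATB than in the control, and Psmb10 was lower with rATB and with buffer than in the control.

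Per kilobase of annotated exon, Psmb8 stood at 47.9, 40.7 and 41.0 units in the rATB, buffer and control libraries and Psmb5 at 13.5, 14.1 and 14.6. On the same per-kilobase scale Psmb10 stood at 41.2, 37.9 and 44.2 units and Psmb7 at 18.6, 17.0 and 16.3. In the reads as counted, both inducible genes stood above their counterparts in every library, the untreated one included. The part of shared sequence, 71.7% of the words of Psmb5, in that distance was not tested. The third pair, Psmb9 and Psmb6, could not be read because Psmb9 was listed at 0. Psmb6 (ENSMUSG00000018286), the constitutive caspase-like subunit, had 96.3 units in the rATB library, 95.3 in the buffer library and 103 in the control, with a ratio of 1.01 over buffer (0.941 to 1.08) and 0.936 over control (0.874 to 1.00).

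**Figure D2:**
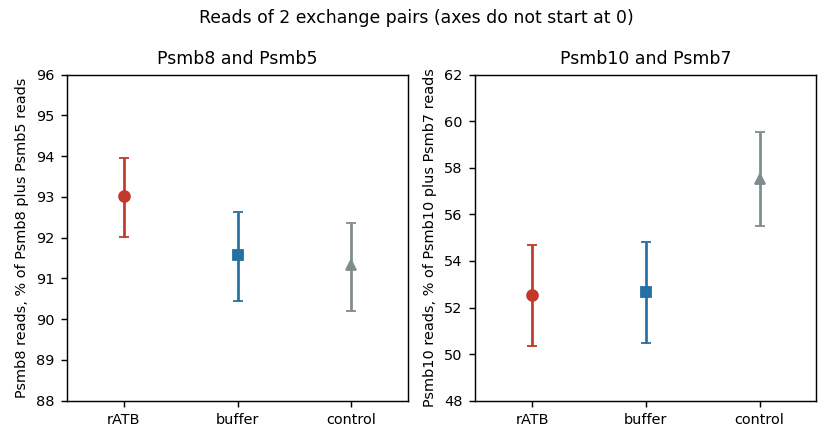
Percent of the reads of each pair that belong to the inducible gene in the rATB, buffer and control libraries, with exact 95% binomial intervals as bars (counting error only); the axes do not start at 0. The Psmb8 share is highest with rATB at 93.0%, and the Psmb10 share is highest in the control at 57.5%.

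The structural beta subunits were mixed. Psmb1 (ENSMUSG00000014769), a non-catalytic beta subunit, had 139 units in the rATB library, 129 in the buffer library and 124 in the control. It was highest with rATB, with a ratio of 1.08 over buffer (1.01 to 1.14) and 1.12 over control (1.06 to 1.19). The interval over buffer reached below 1 with scaling by total reads, where the ratio was 1.05. Psmb3 (ENSMUSG00000069744), also non-catalytic, had 19.7 units in the rATB library, 16.2 in the buffer library and 18.5 in the control, with a ratio of 1.22 over buffer (1.03 to 1.44) and 1.06 over control (0.909 to 1.25). It was the member farthest above buffer, but not beyond counting error above the control, and 66.8% of its words occur in another gene. Summed with its copies Gm4950, Gm14227 and Gm5356, its ratio was 1.13 (0.992 to 1.28) over buffer. Psmb2 and Psmb4, the remaining members of the ring, had ratios over buffer of 0.972 and 0.958, with intervals that include 1. The constitutive beta ring of 7 genes summed to 517 units in the rATB library, 505 in the buffer library and 508 in the control, and its ratio was 1.02 (0.993 to 1.06) over buffer.

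In the alpha ring, Psma4 was lower with rATB than in both other libraries beyond counting error. Psma4 (ENSMUSG00000032301) encodes an alpha ring subunit and had 46.9 units in the rATB library, 54.8 in the buffer library and 53.4 in the control. The rATB library lay below the other two, with a ratio of 0.856 over buffer (0.776 to 0.944) and 0.878 over control (0.796 to 0.967). Over control, the interval included 1 with scaling by total reads, at 0.908, and with median-of-ratios factors, at 0.913. Its copy Gm6542 shares 28.8% of its words and had 506, 559 and 563 reads in the rATB, buffer and control libraries. Summed with that copy, the ratio was 0.903 (0.837 to 0.974) over buffer and 0.929 (0.861 to 1.00) over control. The upper limit over control is just above 1, so with the copy added Psma4 was no longer beyond counting error below the control.

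Psma3 had 11.4, 12.9 and 12.8 units in the rATB, buffer and control libraries and was also lowest with rATB, at a ratio over buffer of 0.884 (0.722 to 1.08). Psma6, the gene of the highest per-kilobase level among the members, had 121, 127 and 127 units in the same order, and its interval over buffer lay below 1 with scaling by total reads alone, at 0.933. Psma7 had 147, 143 and 139 units and Psma5 19.3, 18.2 and 17.4 units, both highest with rATB under the deposited scaling. Neither went beyond counting error, although Psma7 over control did so under the 3 other scalings, at 1.09, 1.09 and 1.10. Psma1 and Psma2 had ratios over buffer of 1.03 and 1.02. The ring as a whole summed to 557 units in the rATB library, 562 in the buffer library and 566 in the control, and its ratio was 0.991 (0.963 to 1.02) over buffer and 0.985 (0.957 to 1.01) over control.

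The 6 ATPases of the cap, Psmc1 to Psmc6, unfold the substrate and push it into the core. By standard deviation they differed least among the roles for rATB against buffer and against control. For buffer against control they did not, at 0.084 beside 0.060 in the alpha ring. The ATPase differences of rATB from buffer ran from −0.08 to 0.06 on the log2(value + 1) scale. All 6 lay below the control, as did 60.4% of all genes, with differences down to −0.09. With scaling by total reads, TMM and median-of-ratios factors 2 of the 6 lay below the control, beside 51.9%, 52.4% and 50.8% of all genes. None of the 6 had an interval that excluded 1 for rATB in either comparison. They summed to 439.6 units in the rATB library, 440.5 in the buffer library and 451 in the control, and the ratio was 0.998 (0.966 to 1.03) over buffer and 0.974 (0.943 to 1.01) over control.

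Of the 11 non-ATPase cap subunits, Psmd4 alone was higher than in both other libraries beyond counting error. Psmd4 (ENSMUSG00000005625) encodes a receptor that binds ubiquitin chains on the substrate. It had 114 units in the rATB library, 101 in the buffer library and 99.3 in the control, with the buffer library and the control nearly level. The ratio was 1.14 over buffer (1.06 to 1.22) and 1.15 over control (1.08 to 1.23), and both intervals stayed above 1 under each other scaling. Psmd7 (ENSMUSG00000039067), the partner of the deubiquitinase Psmd14, had 67.8 units in the rATB library, 75.5 in the buffer library and 70.5 in the control. It was lowest with rATB and highest with buffer, with a ratio of 0.899 over buffer (0.828 to 0.975) and 0.962 over control (0.886 to 1.04). Psmd14 had 50.7, 51.4 and 52.0 units in the rATB, buffer and control libraries. It has 2 rows, one of them listed at 0.

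Psmd12 had 51.7, 55.3 and 53.1 units in the rATB, buffer and control libraries and Psmd13 had 81.2, 82.6 and 82.5 units, both lowest with rATB under the deposited scaling by less than counting error. Psmd1 and Psmd2, the large scaffold subunits of the cap base, had ratios over buffer of 0.983 and 1.01. Psmd3, Psmd6, Psmd8 and Psmd11 had ratios over buffer from 0.972 in Psmd6 to 1.02 in Psmd3. In sum the non-ATPase subunits came to 991 units in the rATB library, 991 in the buffer library and 998 in the control, a ratio over buffer of 1.000 (0.978 to 1.02).

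Among the other regulators, the inhibitor gene was the one that differed. Psmf1 (ENSMUSG00000032869) encodes PI31, a protein that inhibits the core particle in vitro. It had 40.0 units in the rATB library, 33.7 in the buffer library and 35.3 in the control. The rATB library was the highest, with a ratio of 1.19 over buffer (1.06 to 1.33) and 1.13 over control (1.01 to 1.27), and both intervals stayed above 1 under each other scaling. Psme3, the nuclear relative of Psme1 and Psme2 that interferon does not induce, had 92.5 units in the rATB library, 95.7 in the buffer library and 96.8 in the control. Psme4, the large single-chain activator PA200, had 120.0 units in the rATB library, 121 in the buffer library and 121 in the control. Neither differed from buffer beyond counting error, with ratios of 0.967 and 0.993. Relative to Psme3, Psme1 was 1.08 (0.985 to 1.19) times as high with rATB as with buffer.

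The Psmg assembly chaperones had few reads and wide intervals. Psmg1 and Psmg2 form a pair that assembles the alpha ring. They lay on opposite sides of the other libraries: Psmg1 had 9.15 units in the rATB library, 10.8 in the buffer library and 10.9 in the control, and Psmg2 had 10.9 units in the rATB library, 9.66 in the buffer library and 8.55 in the control. Psmg1 had a ratio of 0.845 over buffer (0.675 to 1.06) and 0.839 over control (0.671 to 1.05). Psmg2 had a ratio of 1.12 over buffer (0.903 to 1.40) and 1.27 over control (1.02 to 1.59), beyond counting error over the control only. Psmg3, which forms a further pair with Psmg4, had 11.4, 9.72 and 10.9 units in the rATB, buffer and control libraries, and Psmg4 had 15.0, 15.0 and 13.3 units.

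Psmd5, Psmd9 and Psmd10 are chaperones of the cap base. Psmd5 had 44.1 units in the rATB library, 42.6 in the buffer library and 38.9 in the control, with a ratio of 1.04 over buffer (0.932 to 1.15) and 1.13 over control (1.02 to 1.26). Psmd9 and Psmd10 had ratios over buffer of 0.988 and 0.991. The 7 chaperones together summed to 145 units in the rATB library, 143 in the buffer library and 141 in the control.

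**Figure D3:**
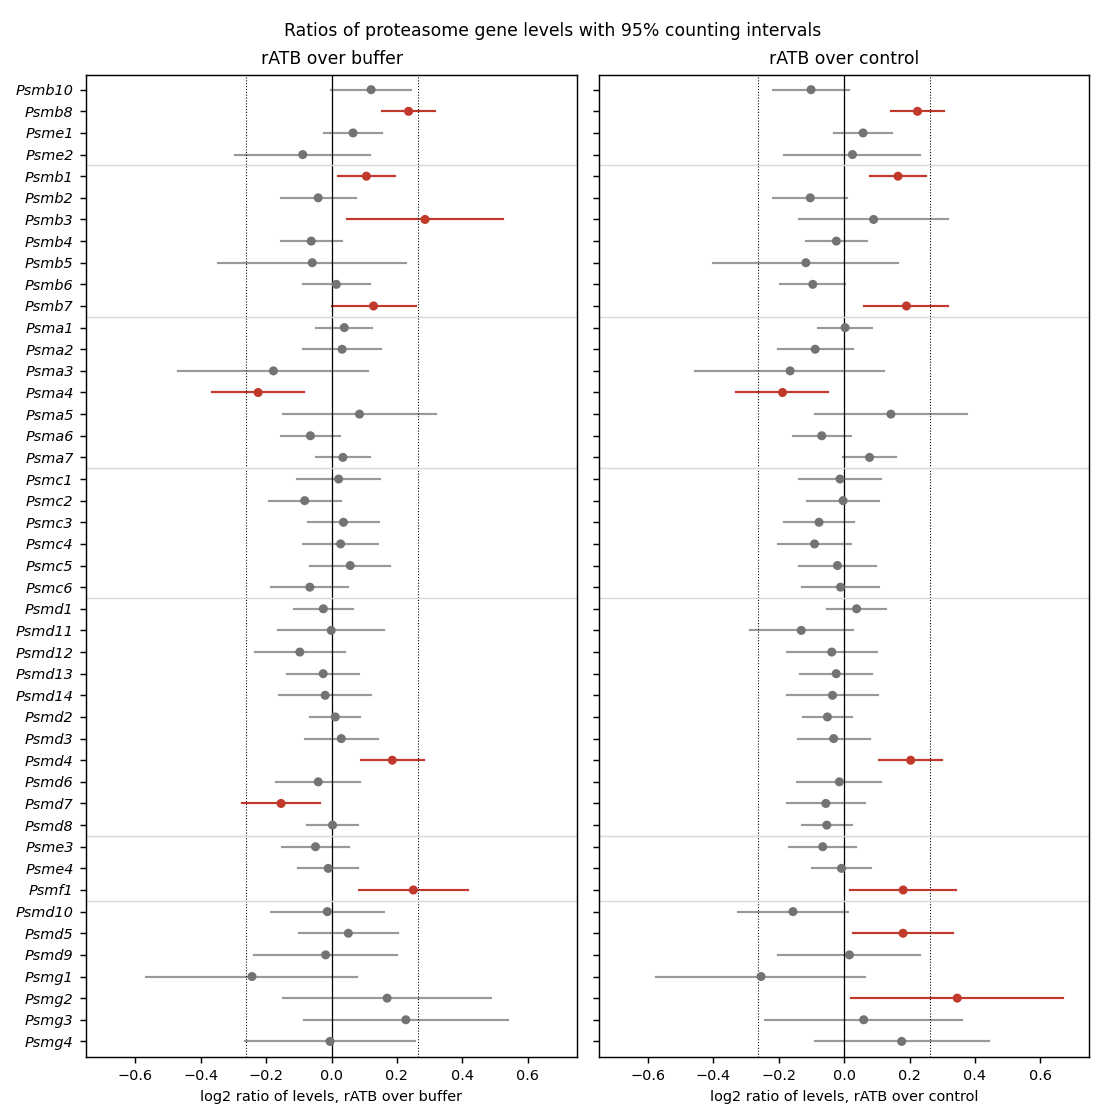
Log2 ratio of the level in the rATB library over buffer (left) and over control (right) for 45 proteasome genes past the filter (Psmc3ip left out), ordered by role from the immunoproteasome genes at the top to the assembly chaperones at the bottom. Bars are exact 95% counting intervals, those in red exclude 0, and dotted lines mark 1.2-fold; Psmb8, Psmb1, Psmb7, Psmd4 and Psmf1 are red above 0 in both panels and Psma4 is red below 0 in both.

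The members kept close to one another as well as to the other libraries. The standard deviation of the differences over the 46 members was 0.11 for rATB against buffer, 0.12 for rATB against control and 0.09 for buffer against control on the log2(value + 1) scale. Over all 12559 genes it was 0.32, 0.33 and 0.19. Low genes vary more through counting, so the 44 members with a mean of at least 10 units were set beside the 7971 genes from 10 units up to the level of the highest member. The rATB minus buffer standard deviations were then 0.11 and 0.28. This is a description of 1 library per group, and no test of it was made.

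**Figure D4:**
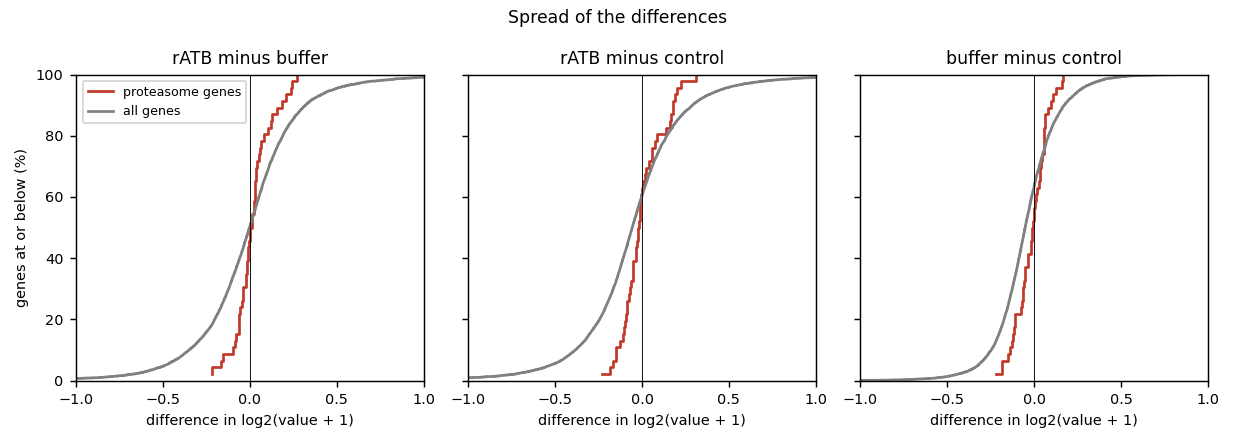
Cumulative percent of genes at or below a given difference in log2(value + 1), for the 46 proteasome genes past the filter (red) and all 12559 genes past it (grey), in 3 panels, the rATB library minus buffer, the rATB library minus control, and the buffer library minus control. The horizontal axes end short of the most extreme of all genes; the red curves are steeper, with standard deviations of 0.11, 0.12 and 0.09 for the members and 0.32, 0.33 and 0.19 for all genes.

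Several proteasome genes have copies elsewhere in the genome. More than 50% of the 31-base words of Psmb5 (71.7%), Psmb3 (66.8%), Psma5 (66.5%) and Psme2 (62.6%) also occur in transcripts of another gene in GENCODE M21. That is 4 of 46 members (8.70%), beside 439 of 11251 genes past the filter with a protein-coding transcript (3.90%). In the control, the per-kilobase level of these genes ran from 8.05 in Psmb3 to 14.6 units in Psmb5, with a median of 13. The 31 other subunit genes ran from 3.29 in Psma3 to 103 units in Psma6, with a median of 32.1. Subunits of one ring are built in equal number, yet these extremes, Psma3 and Psma6, belong to the same ring. Their annotated exons, joined over all transcripts, span 3.89 kb and 1.23 kb, which widens the distance. Without division by length the control levels were 12.8 and 127 units. The part of the annotated length in the per-kilobase distance was not tested. Across the 46 members, the control level per kilobase and the percent of shared words had a Pearson correlation of −0.28, a description over genes of 1 library that share its depth.

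Reads were counted at some of these copies. Gm13835 had 864, 992 and 1030 reads in the rATB, buffer and control libraries, against 180, 221 and 228 of Psma3, with which it shares 22.8% of the words of Psma3. Gm8394 had 348, 414 and 411 reads and Gm12989 had 341, 333 and 377, both copies of Psma5. Gm5422, a copy of Psmd2, had 870, 847 and 951. Whether such reads came from the copy or from the subunit gene cannot be told apart in gene totals. Summing each gene with its copies gave ratios over buffer of 0.934 for Psma3, 1.02 for Psma5, 1.03 for Psmd2 and 1.02 for Psmc1, all with intervals that include 1. Psmb8 shares 7.79% of its words with Gm20496, which had 17, 26 and 34 reads, few beside its own.

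**Figure D5:**
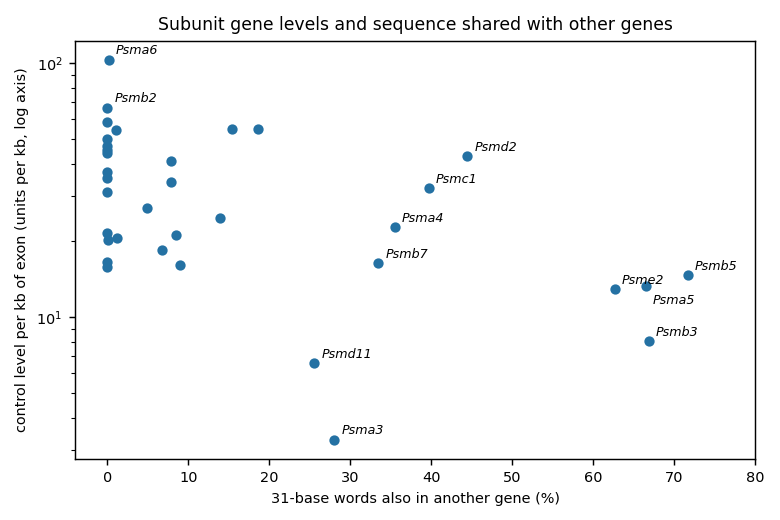
Control level per kilobase of exon (log axis) against the percent of 31-base words that also occur in another gene, for 35 proteasome subunit genes, 1 point each. The 4 genes above 50% on the horizontal axis, Psme2, Psma5, Psmb3 and Psmb5, lie between 8.05 and 14.6 units per kilobase, under the median of 32.1 of the others.

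Genes that act with the proteasome were followed through 5 lists. Medians are differences in log2(value + 1), beside −0.00 against buffer and −0.06 against control over all genes. Higher or lower here means at least 1.2-fold on that scale from both other libraries, which held for 7.84% of all genes upward and 10.8% downward. Of 21 proteasome-associated genes past the filter, 2 were lower and 0 higher, with a median of −0.05 against buffer and −0.06 against control. The lower 2 were Nfe2l2 and Zfand5. Nfe2l2 encodes Nrf2, the oxidative stress factor that can raise proteasome genes, and had 354 units in the rATB library, 552 in the buffer library and 569.6 in the control. The ratio was 0.642 over buffer (0.621 to 0.664) and 0.622 over control (0.602 to 0.643). Zfand5, a zinc finger protein that stimulates the proteasome, had 143 units in the rATB library, 184 in the buffer library and 173 in the control, with a ratio of 0.779 over buffer (0.738 to 0.823) and 0.827 over control (0.783 to 0.873).

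Nfe2l1, whose product Nrf1 restores proteasome gene transcription when the proteasome is inhibited, had 284 units in the rATB library, 275 in the buffer library and 270.1 in the control. Its ratio was 1.03 over buffer (0.989 to 1.07) and 1.05 over control (1.01 to 1.09). The proteasome maturation protein gene Pomp had 79.2 units in the rATB library, 82.0 in the buffer library and 82.4 in the control, and the ubiquitin receptor gene Adrm1 had 11.8 units in the rATB library, 11.7 in the buffer library and 13.1 in the control. Both ratios over buffer, 0.965 and 1.00, were within counting error. Usp14, a deubiquitinase of the cap, had 57.7 units in the rATB library, 69.2 in the buffer library and 67.3 in the control, with a ratio of 0.834 over buffer (0.764 to 0.910) and 0.858 over control (0.786 to 0.936). On the log2(value + 1) scale Usp14 was short of 1.2-fold lower in both comparisons.

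Ubb, a polyubiquitin gene, had 204 units in the rATB library, 185 in the buffer library and 212 in the control, with a ratio of 1.10 over buffer (1.05 to 1.16) and 0.964 over control (0.920 to 1.01). For p97, the ATPase that pulls ubiquitin-tagged proteins out of complexes, 8 genes had a median of 0.12 against buffer and 0.02 against control. The cofactor gene Faf1 was the 1 higher gene, with 51.4 units in the rATB library, 40.8 in the buffer library and 40.2 in the control and a ratio of 1.26 over buffer (1.14 to 1.40) and 1.28 over control (1.15 to 1.42), and 0 were lower.

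Of 15 measured genes of interferon signalling, 2 were higher and 0 lower, with a median of 0.08 against buffer and 0.02 against control. Irf1, an activator of immunoproteasome genes, had 93.5 units in the rATB library, 88.4 in the buffer library and 99.7 in the control, and Nlrc5, which drives class I genes, had 24.0 units in the rATB library, 24.1 in the buffer library and 23.6 in the control. Irf8, a lineage factor of dendritic cells, had 566 units in the rATB library, 378 in the buffer library and 384 in the control and was higher, with a ratio of 1.5 over buffer (1.45 to 1.55) and 1.47 over control (1.43 to 1.52). Socs1, a feedback inhibitor of Jak kinases, was higher as well, with 94.5 units in the rATB library, 54.8 in the buffer library and 60.4 in the control and a ratio of 1.72 over buffer (1.59 to 1.87) and 1.57 over control (1.45 to 1.70). The interferon gene Ifng had 0, 1 and 0 reads in the rATB, buffer and control libraries, and Ifnb1 had 0 in each, which allows a level of up to 0.191, 0.176 and 0.169 units.

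Class I peptide loading genes numbered 11, of which 2, B2m and H2-K1, were higher and 0 lower, with a median of 0.11 against buffer and 0.11 against control. Tap1, a subunit of the peptide transporter and the neighbour of Psmb9, had 110.1 units in the rATB library, 102 in the buffer library and 100.2 in the control, with a ratio of 1.08 over buffer (1.01 to 1.16) and 1.10 over control (1.03 to 1.17). B2m, the light chain of class I molecules, had 1845 units in the rATB library, 1302 in the buffer library and 1392 in the control, with a ratio of 1.42 over buffer (1.39 to 1.44) and 1.33 over control (1.30 to 1.35). By counting intervals, 6 of the 11 were above both other libraries (all genes 11.4%): Tap1, Tap2, Tapbp, B2m, H2-K1 and H2-D1. Below both by that measure, but short of 1.2-fold, were 2 (all genes 15.4%). These were genes of chaperones that help class I molecules fold and load. Pdia3 had 464 units in the rATB library, 536 in the buffer library and 549.5 in the control, with a ratio of 0.865 over buffer (0.839 to 0.892) and 0.844 over control (0.818 to 0.870). Canx had 414 units in the rATB library, 456 in the buffer library and 478 in the control, with a ratio of 0.907 over buffer (0.878 to 0.938) and 0.865 over control (0.837 to 0.893). Of 9 cytosolic peptidase genes, 1 was higher and 0 lower, with a median of −0.02 against buffer and −0.10 against control. That gene, Lap3, encodes an interferon-inducible leucine aminopeptidase that trims proteasome products. It had 84.8 units in the rATB library, 69.1 in the buffer library and 63.2 in the control, with a ratio of 1.23 over buffer (1.13 to 1.33) and 1.34 over control (1.24 to 1.45).

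Marker lists of cell types were followed as well, since markers moved between the libraries too. The 8 dendritic cell markers summed to 9216 units in the rATB library, 11614 in the buffer library and 13999 in the control, with 5 of them highest and 3 lowest with rATB. The sum was lowest with rATB, so the 3 lowest markers outweighed the 5 highest. A sum weighs each marker by its level, so neither this sum nor those below are read as numbers of cells. The 8 macrophage markers, all past the filter, summed to 3666 units in the rATB library, 3896 in the buffer library and 4994 in the control, with 1 highest and 4 lowest with rATB. Of 5 plasmacytoid dendritic cell markers, 3 were past the filter and Ly6d was listed at 0, and the list summed to 201 units in the rATB library, 165 in the buffer library and 154 in the control, with 2 markers highest and 2 lowest with rATB. Neutrophil markers, 3 of 8 past the filter, summed to 40.8 units in the rATB library, 41.7 in the buffer library and 52.4 in the control, and mast cell or basophil markers, 1 of 5 with Mcpt8 and Fcer1a listed at 0, to 37.6 units in the rATB library, 39.0 in the buffer library and 40.3 in the control. T cell markers, 2 of 6 past the filter, summed to 3.94 units in the rATB library, 3.92 in the buffer library and 4.11 in the control, natural killer cell markers, 1 of 5 with Ncr1, Gzma, Prf1 and Eomes listed at 0, to 2.80 units in the rATB library, 4.63 in the buffer library and 3.77 in the control, and B cell markers, 0 of 5, to 0.890 units in the rATB library, 0.351 in the buffer library and 0.338 in the control. The part of these shifts in the values of Psmb8 and the other members was not tested.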

How the data were processed

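Messenger RNA was sequenced from 3 libraries of mouse marrow-derived dendritic cells, 1 per group: rATB, buffer and control. Per the labels' protocols, the library kit was TruSeq version 2, which does not mark strand, so reads of antisense genes mix with those of a gene. TopHat2 2.0.13 is the aligner per the submitters' processing notes, and they name GRCh37, a human build, beside mouse identifiers, so coordinates printed here come from RefSeq windows of GRCm38.p6 and none from the files. For the read counter and the annotation, nothing was stated. The buffer library carries a dose label of 1 ng/ml, whose meaning is unclear.

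The authors deposited log2 values per gene, per the file headers, with a spreadsheet error for the log2 of 0 (53.1% to 54.0% of each column). On the linear scale 100% of the values were whole multiples of one step, within a tolerance of 1e-06, so they were read as read counts times a column factor of 1.13 for rATB, 1.04 for buffer and 1 for control. Rows of one symbol were summed. Columns left unused numbered 0. A pseudocount of 1 unit was added before log2, which understates the change of low genes. Ratio intervals are exact conditional Clopper-Pearson intervals, and ratios of ratios have intervals from the 4 read counts, and all cover counting error only. PCR reads without molecular identifiers are not independent molecules, and a count of 0 allows 3 counts. With 1 library per group, called means past a fold or an interval, and no test was run.

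Exon lengths, transcripts and shared 31-base words came from GENCODE M21, and promoter windows from RefSeq. Exon lengths join all annotated exons of a gene, whether or not the cells use them. The scripts (Python 3.11.15, numpy 2.4.6, pandas 2.3.3, scipy 1.17.1) were tested on simulated data; TMM and median-of-ratios factors were computed from the recovered counts.

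The members and lists were chosen with earlier results of these data known. Genes named are the immunoproteasome genes, their counterparts, Psme3, members below the filter, the 10 highest and 10 lowest other members by the smaller of the rATB differences from buffer and control, members at the extremes of each role, up to 3 genes per partner list, and Irf1, Nlrc5, Tap1, Nfe2l1, Pomp, Adrm1 and Ubb. Some genes of this rule, and the list of ubiquitin genes, are not reported here. Members named beyond these, to account for each role, further partner genes, the copies and the markers were chosen after their values were seen. Alternatives were other scalings, filters, pseudocounts and folds, leaving out Psmc3ip, and sums with copies. The percent for Psmb9 and Psmb6 could not be given.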

Additional observations from a re-analysis of the deposited data

How the results depend on the processing

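The medians and several counts moved with the scaling. The immunoproteasome median for rATB over buffer was 0.057 with scaling by total reads, 0.088 with TMM and 0.096 with median-of-ratios factors, and that over control was 0.089, 0.086 and 0.096 in the same order. With scaling by total reads, the median of the 42 other members was −0.034 for rATB over buffer, 0.025 over control and 0.074 for buffer over control, the immunoproteasome median for buffer over control was 0.075, and 0 members were 1.2-fold higher than buffer and 2 than control. With TMM factors the immunoproteasome median for buffer over control was 0.041, above 0 as with the other scalings, the other members' medians were −0.0036 for rATB over buffer, 0.022 for rATB over control and 0.042 for buffer over control, 11 members were lowest with rATB and 2 were 1.2-fold higher than control. With median-of-ratios factors the immunoproteasome medians were 0.096 for rATB over control and 0.043 for buffer over control, those of the other members were 0.032 and 0.043, 8 members were lowest with rATB and 2 were 1.2-fold higher than control. With Psme2 summed with its copy, chosen after seeing the data, the immunoproteasome median was 0.019 for rATB over control and −0.030 for buffer over control. Asking that the counting intervals exclude 1 left 5 members highest and 1 lowest with rATB. A pseudocount of 0.1 units gave 1 member 1.2-fold lower than control, Psmc3ip, which encodes no subunit. Its ratio over control was 0.813 (0.418 to 1.55), from 18 reads with rATB and 25 in the control. A limit of 1.5-fold gave 0 members higher than buffer and 0 higher than control. The shares of all genes beside the member counts are not given under the other scalings. Those counts are therefore not read as results about the members. The cause of the shifts with processing was not tested. No scaling moved the median of all genes by more than 0.1 on the log2 scale. Of 246 alternative values, 24 lay on the other side of no difference from the value reported, 15 of them medians of either set and 9 ratios of named members; none of these 9 ratios had a counting interval that excluded 1 as reported. No paired analysis was possible because each group held 1 library, so no replicate could be left out either. The libraries' depth limits genes of few reads most, and intervals from reads of 1 library say nothing of the spread between cultures.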
